A study of Mus musculus with 4 samples.

Results

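Isolated CCGG sites in gene deserts were autosomal CCGG sites that were listed in all 4 samples, had no other such site within 500 bp on either side and lay more than 200 kb from the nearest protein-coding gene. Position and distance chose them, and no measured level did, apart from the need to be listed in every sample. There were 73475 of them among 967498 autosomal sites listed in all 4 samples (996020 on any chromosome) and 534578 autosomal sites that were isolated in the same sense. They were compared with 234733 isolated sites inside gene bodies, meaning more than 1 kb inside both ends of a protein-coding gene.

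The DNA came from heart of C57BL/6 mice, 8 weeks old per the labels, taken 3 days after myocardial infarction. The 4 groups were wild-type non-infarcted left ventricle, wild-type infarcted left ventricle, Neil3-/- non-infarcted left ventricle and Neil3-/- infarcted left ventricle, with 1 sample each. Every group therefore came from animals with an induced infarct, and the non-infarcted tissue is the spared part of an injured ventricle. Neil3 is a DNA glycosylase that removes oxidized bases, and the labels name no promoter or cell type that would limit its loss. The number of animals behind a sample was not given in the sources used here, and with bulk tissue a change in the cells present and a change within cells cannot be told apart.

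Most CpG dinucleotides of mammalian DNA carry a methyl group on the cytosine, and a smaller share carries the oxidized form, hydroxymethylcytosine, which in many tissues is enriched in the bodies of transcribed genes. Gene deserts are long stretches without protein-coding genes, poor in CpG, late to replicate in many tissues, and in part home to distant enhancers of developmental genes. HMST-seq reads short tags at CCGG from 3 libraries per sample: HpaII cuts only where the inner cytosine is unmodified ("C"), MspI cuts whatever its state ("C+mC+hmC"), and MspI after glucosylation is stopped at hydroxymethylated sites ("C+mC"). HpaII signal in percent of that of MspI (HpaII/MspI) thus rises with the unmodified state, and C+mC/MspI falls with the hydroxymethylated state. Each library had been normalized by the authors, so a ratio can pass 100% and is an index on a relative scale, not a share of DNA molecules. A contrast between desert and gene-body sites inside a sample is free of that scaling only if it was 1 factor per library, and the method is not known.

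Sequence around a member was at hand where it fell in a RefSeq promoter window, which reaches from 250 bases before to 50 bases after a gene's start on GRCm38.p6. That was so for 85 members, all beside genes that do not code for protein, and all 85 carried CCGG at the listed position. With 40 bases kept on each side, 53 of the 85 had a full stretch of 84 bases, with a median GC content of 47.6%, against 56.0% for 539 gene-body sites treated the same way. Below are the 3 with the highest and the 3 with the lowest HpaII/MspI ratio among those with a full stretch and enough signal (a mean of at least 10 in the MspI and C+mC libraries), chosen after their values were seen to show what the ends of the range look like, followed by a site called in the genotype test further on. Each is written on the gene's strand, with the CCGG in capitals.
Gm40331, chr5:126787686-126787769, plus strand: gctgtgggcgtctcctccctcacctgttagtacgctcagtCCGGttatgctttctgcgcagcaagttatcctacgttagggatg
4932435O22Rik, chr11:114449012-114449095, minus strand: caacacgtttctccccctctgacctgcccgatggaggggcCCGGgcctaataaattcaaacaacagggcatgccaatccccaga
Gm31830, chr4:124451061-124451144, plus strand: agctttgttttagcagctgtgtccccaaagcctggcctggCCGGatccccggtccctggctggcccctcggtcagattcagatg
Gm41472, chr16:73481051-73481134, plus strand: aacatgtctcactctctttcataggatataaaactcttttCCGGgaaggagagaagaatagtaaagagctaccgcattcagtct
Gm12130, chr11:38520089-38520172, minus strand: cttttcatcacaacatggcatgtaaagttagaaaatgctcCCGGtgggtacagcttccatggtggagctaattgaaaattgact
Gm35253, chr5:99510707-99510790, minus strand: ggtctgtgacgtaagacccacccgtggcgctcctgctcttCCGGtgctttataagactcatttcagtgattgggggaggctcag
Gm46038, site at position 34456952 of chromosome 8, plus strand: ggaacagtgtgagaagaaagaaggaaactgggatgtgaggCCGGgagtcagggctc

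The site in the Gm40331 window had HpaII signals of 72.4 and 76.4 in wild-type tissue without and with infarct, and of 76.8 and 69.9 in Neil3-/- tissue without and with infarct (the order wherever 4 values are given), over MspI signals of 7.51, 8.56, 7.12 and 12.2. HpaII was far above MspI there in all 4 samples, and the site lies 454.1 kb from the nearest coding gene, between Gm4868 and Tmem132c. At the other end, the site in the Gm12130 window, 1283 kb from a coding gene between Tenm2 and Mat2b, had HpaII signals of 17.1, 12.0, 28.7 and 7.43 over MspI signals of 97.1, 110.9, 102.9 and 106.4. MspI lay far above HpaII there in all 4 samples, and HpaII differed more between samples than MspI did. The stretches at the high end held 3 to 5 CpG and those at the low end 1 to 4, so the number of CpG did not part the ends. Over the 85 members in windows the median ratio was 113.4%, with a range from 11.1% to 853.7%, and over 728 gene-body sites in windows it was 200.5%.

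Members carried less signal than gene-body sites in every library. Their mean MspI signal was 33.9, 27.4, 32.1 and 32.2 in the 4 samples, or 79.8%, 79.6%, 79.4% and 79.4% of that at gene-body sites. For HpaII the same percentages were 82.3%, 79.1%, 80.9% and 79.1%, and for C+mC they were 79.4%, 79.3%, 81.8% and 75.9%. The deficit at MspI, which does not read the modification, was thus the same in all 4 samples to within 1 percentage point, while that of C+mC was deepest in Neil3-/- infarcted tissue. Surroundings differed too: a member had a median of 4 other listed sites within 10 kb and its nearest neighbour at a median of 2092 bp, against 10 sites and 1169 bp in gene bodies.

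Desert sites did not have a stable place above or below gene bodies in the unmodified index when signal was summed over sites. Summed HpaII/MspI of the members was 85.0%, 85.7%, 88.4% and 87.3% in the 4 samples. In gene bodies it was 82.5%, 86.2%, 86.8% and 87.7%. On the log2 scale, desert over gene body was 0.044, -0.0085, 0.027 and -0.0057, higher in deserts in both non-infarcted samples and lower in both infarcted ones, with a mean of 0.014 ± 0.026 (SD, n = 4; exact two-sided sign-flip permutation test, p = 0.5, where 0.125 is the smallest p that 4 samples allow).

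The typical site gave another answer. The median over members of the site ratio was 92.3%, 89.7%, 92.8% and 91.0%, against 77.2%, 78.7%, 79.7% and 79.5% in gene bodies. Deserts were higher in all 4 samples, by 0.21 ± 0.032 on the log2 scale (SD, n = 4; the same exact test, p = 0.125), and on 19 of 19 autosomes in each sample. The spread among members was wide: in wild-type non-infarcted tissue the middle of the distribution ran from 47.1% (25th percentile) to 179.3% (75th percentile), and in gene bodies from 37.4% to 163.4%.

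**Figure D1:**
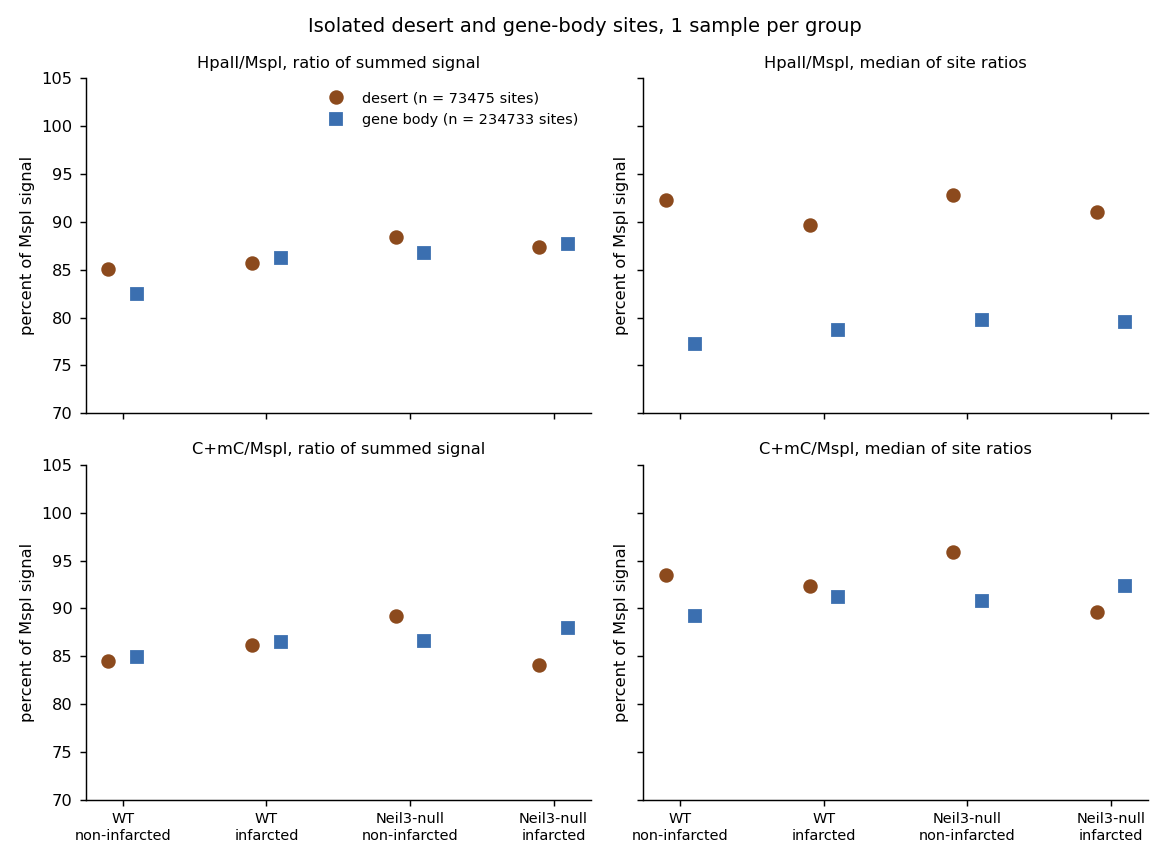
Each point is 1 sample: HpaII/MspI (top) and C+mC/MspI (bottom) in percent of MspI signal, for isolated desert sites (circles) and isolated gene-body sites (squares), as a ratio of summed signal (left) and as the median of site ratios (right); the vertical axis starts at 70%. For HpaII/MspI the median of desert sites, 89.7% to 92.8%, lies above that of gene bodies, 77.2% to 79.7%, in every sample, while the summed ratios overlap.

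At a given MspI signal, deserts were lower by summed ratio. When isolated sites were cut into 5 equal classes by mean MspI signal, 28.3% of members and 16.8% of gene-body sites fell in the lowest, and 14.1% and 22.1% in the highest. In the lowest class, summed HpaII/MspI of members was 231.5%, 221.5%, 218.1% and 229.3% in the 4 samples, and that of gene bodies 290.7%, 286.3%, 269.6% and 295.3%. In the highest it was 43.1%, 42.8%, 46.1% and 44.0%, against 46.5%, 47.9%, 50.2% and 49.0%. Deserts were lower by this measure in each of the 5 classes and each of the 4 samples. The mean of the summed contrast over classes was -0.22 ± 0.026 on the log2 scale (SD, n = 4; exact sign-flip permutation test, p = 0.125, the smallest possible). By the median of site ratios the gap was narrower. In wild-type non-infarcted tissue it was 201.9% against 221.2% in the lowest class, 79.96% against 79.89% in the third and 37.64% against 37.56% in the highest. In Neil3-/- infarcted tissue it was 196.4% against 220.1%, 78.5% against 82.0% and 38.6% against 39.7%. Because MspI is also the denominator, the classes were redrawn for each sample from the MspI of the other 3, which gave -0.22 by summed ratio. The direction of the desert to gene-body contrast in the unmodified index thus rested on whether sites were weighted by signal, counted singly or compared by summed signal within MspI classes.

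**Figure D2:**
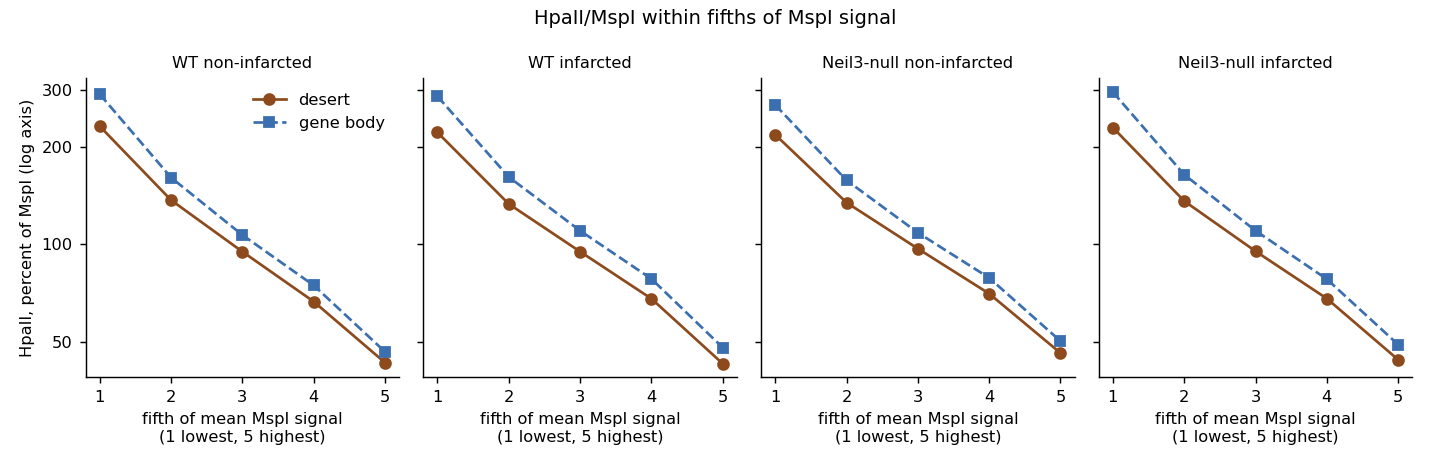
Summed HpaII/MspI in percent of MspI (log axis) by class of mean MspI signal (5 equal classes), with 1 panel per sample, for desert sites (solid line) and gene-body sites (dashed line). The desert line lies under the gene-body line at all 5 points of all 4 panels, from 231.5% against 290.7% in the lowest class to 43.1% against 46.5% in the highest in wild-type non-infarcted tissue.

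Local site density moved with the same contrast. Among members with no other listed site within 10 kb (2156 sites), summed HpaII/MspI was 93.8%, 89.8%, 95.9% and 92.6%, and in the 1436 gene-body sites without a neighbour it was 77.7%, 76.7%, 80.6% and 77.5%. Among members with 10 to 19 neighbours (5566 sites) it was 79.8%, 84.4%, 84.1% and 85.1%, below the 84.4%, 89.1%, 88.8% and 90.6% of gene bodies. Deserts were therefore higher where sites were sparse and lower where they were dense. The mean over 6 density classes, each counted alike, was 0.079 on the log2 scale, with deserts higher in all 4 samples. With both MspI class and density class held it was -0.0084, higher in 1 of 4, as a mean weighted by the number of members. The weighting thus changed along with the classes. Both of these comparisons were chosen after the data were seen.

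Among sites outside genes, distance to the nearest coding gene gave a bowl-shaped profile. Summed HpaII/MspI within 10 kb of a gene was 101.3%, 108.3%, 105.5% and 108.9%. It was lowest at 200 to 300 kb in all 4 samples, at 82.9%, 84.5%, 86.2% and 85.8%, although the classes on either side were within 2 percentage points. Beyond 1000 kb, over 8944 members, it was 90.5%, 89.3%, 93.9% and 91.4%. The median of site ratios was higher further out, going from 86.1%, 84.7%, 87.4% and 85.9% at 200 to 300 kb to 103.7%, 99.4%, 103.8% and 101.0% beyond 1000 kb. Mean MspI went over the same span from 36.9 to 29.7 in wild-type non-infarcted tissue, and the median number of neighbours within 10 kb from 5 to 3; their part in the profile was not tested. At the edge of the rule, sites 190 to 200 kb from a gene had 82.2%, 84.8%, 86.2% and 84.7%, and sites at 200 to 210 kb had 83.4%, 84.4%, 86.5% and 85.9%. The isolation edge showed more of a step, since desert sites left out for a neighbour in the last 100 bp of the 500 had 90.7%, 93.4%, 94.3% and 95.4%, and members with one in the 100 bp after them had 84.4%, 87.4%, 88.0% and 88.7%.

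**Figure D3:**
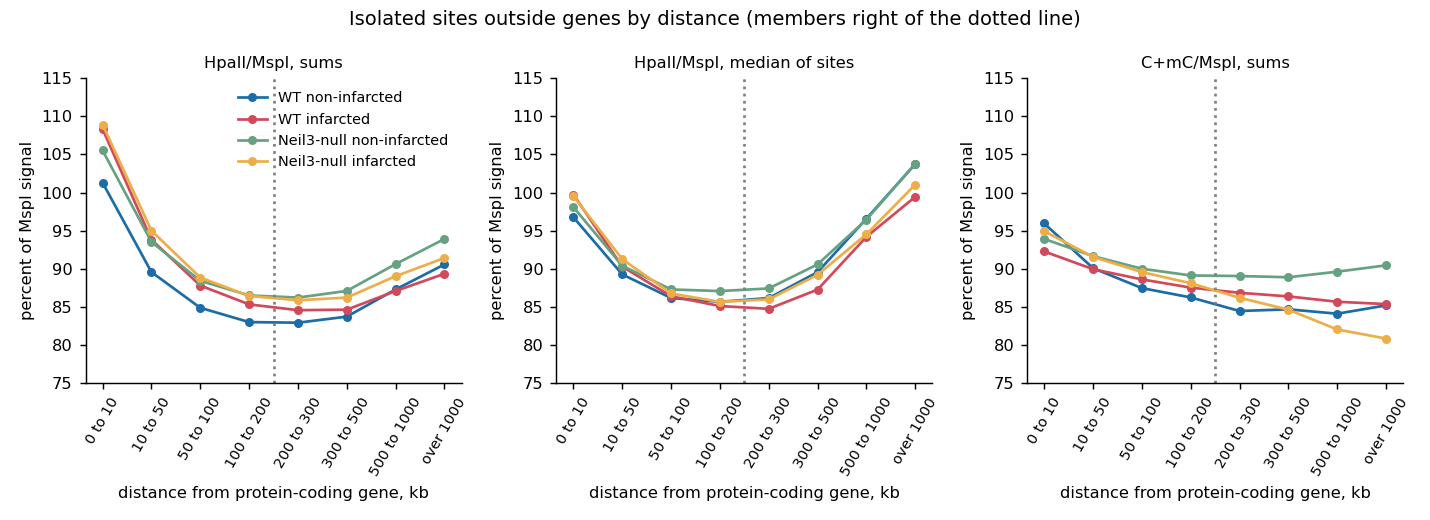
Isolated sites outside genes by distance from the nearest protein-coding gene in kb, with 1 line per sample, for summed HpaII/MspI (left), the median of HpaII/MspI over sites (middle) and summed C+mC/MspI (right), all in percent of MspI signal with the vertical axis starting at 75%; members lie right of the dotted line. Both HpaII panels have their low point between 100 and 300 kb, and in the right panel Neil3-/- infarcted tissue falls to 80.8% beyond 1000 kb while Neil3-/- non-infarcted tissue stands at 90.4%.

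For the hydroxymethylation-sensitive ratio the members differed between samples more than between classes. Summed C+mC/MspI of the members was 84.5%, 86.2%, 89.3% and 84.0% in the 4 samples, against 84.9%, 86.5%, 86.6% and 87.9% in gene bodies. Desert over gene body was -0.0080, -0.0048, 0.043 and -0.065 on the log2 scale, with a mean of -0.0087 ± 0.044 (SD, n = 4; exact sign-flip permutation test, p = 0.625). Without the wild-type non-infarcted library, whose C+mC/MspI spread most widely over members (25th to 75th percentile 56.2% to 152.1%, against 62.6% to 134.9% in wild-type infarcted tissue), the mean was -0.0089 (n = 3, where 0.25 is the smallest exact p). The Neil3-/- samples lay on opposite sides: deserts were lower on 19 of 19 autosomes in Neil3-/- infarcted tissue, and higher on 18 of 19 in Neil3-/- non-infarcted tissue. In wild-type tissue autosomes were split, with deserts higher on 10 of 19 without infarct and on 9 of 19 with it. Within MspI classes deserts were lower in all 4 samples, at -0.16, -0.12, -0.076 and -0.18 (exact p = 0.125). Further from genes the samples parted: beyond 1000 kb C+mC/MspI was 85.2%, 85.3%, 90.4% and 80.8%.

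The C+mC ratio was higher with the number of neighbouring sites, and not equally in each library. Members with no neighbour within 10 kb had C+mC/MspI of 76.3%, 85.3%, 89.8% and 75.7%, and members with 10 to 19 neighbours 90.9%, 91.5%, 91.1% and 93.6%. The wild-type non-infarcted and Neil3-/- infarcted libraries had the steep slopes, while the other two were nearly level up to 9 neighbours. Gene-body sites without a neighbour were lower, with 69.3%, 78.1%, 84.6% and 73.2%, in the same order of samples apart from the lowest pair. Within density classes deserts were higher than gene bodies in all 4 samples, by a mean of 0.079 on the log2 scale (exact sign-flip permutation test, p = 0.125). With both MspI class and density class held, the 4 values were 0.061, 0.024, 0.041 and -0.0039 (mean 0.030, higher in 3 of 4). These were weighted by the number of members, while the density classes alone were each counted alike. Both of these comparisons were chosen after the data were seen. The Neil3-/- samples had opposite signs in the pooled contrast and with MspI class and density class held, and the same sign within density classes alone.

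**Figure D4:**
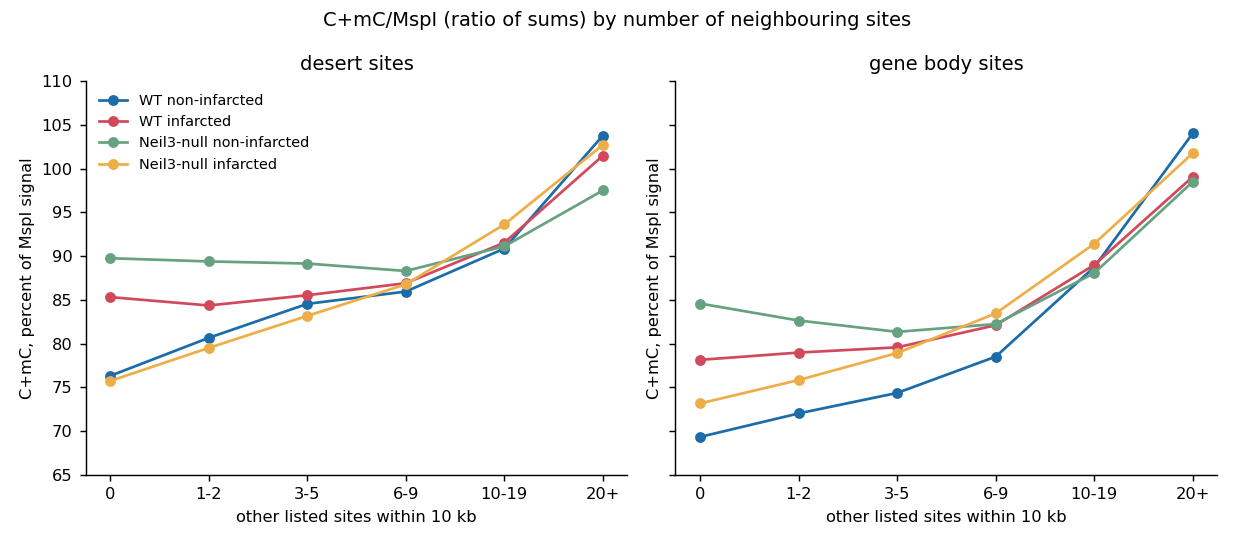
Summed C+mC/MspI in percent of MspI (vertical axis from 65%) by the number of other listed sites within 10 kb, for desert sites (left) and gene-body sites (right), with 1 line per sample. With no neighbour the desert samples spread from 75.7% to 89.8%, and with 10 to 19 neighbours they lie between 90.9% and 93.6%.

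Relative to gene bodies, the unmodified index of deserts was slightly lower in infarcted than in non-infarcted tissue of both genotypes. In wild-type tissue summed HpaII/MspI went from 85.0% to 85.7% in deserts and from 82.5% to 86.2% in gene bodies, so that deserts moved by 0.011 and gene bodies by 0.064 on the log2 scale, a relative difference of -0.053. In Neil3-/- tissue deserts went from 88.4% to 87.3% and gene bodies from 86.8% to 87.7%, a relative difference of -0.033. The relative difference was below 0 on 19 of 19 autosomes in each genotype, from -0.099 to -0.028 in wild type and from -0.047 to -0.013 in Neil3-/-. Autosomes of a sample share its libraries and are not replicates, and with 1 sample per group there was no test. Within density classes, each counted alike, the relative differences were -0.021 and -0.0031, so both were smaller where sites of like density were compared. That setting was chosen after the data were seen, here and for C+mC.

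The genotypes differed less in this ratio. Relative to gene bodies, Neil3-/- minus wild type was -0.018 in non-infarcted tissue, below 0 on 16 of 19 autosomes, and 0.0028 in infarcted tissue, below 0 on 7 of 19. Scaling decided the direction in non-infarcted tissue, since the deserts alone were 0.056 higher as deposited.

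In C+mC/MspI the difference between samples was largest within Neil3-/-. Relative to gene bodies, infarcted minus non-infarcted was -0.11 in Neil3-/- (below 0 on 19 of 19 autosomes) and 0.0032 in wild type (below 0 on 10 of 19). Neil3-/- minus wild type was 0.051 in non-infarcted tissue, above 0 on 19 of 19 autosomes, and -0.060 in infarcted tissue, below 0 on 19 of 19. Within density classes these 4 values became -0.029, -0.027, -0.030 and -0.031 in the same order, all below 0, and the infarct differences of the genotypes were then alike.

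Members were spread over 717 deserts, each the gap between neighbouring protein-coding genes, and 651 deserts with at least 10 members held 73172 of them (median 64 members over all deserts). Mean HpaII/MspI over the 4 samples ran from 49.5% to 192.9% across the 651, with a median of 87.1% and a 5th to 95th percentile range of 66.7% to 112.7%. Deserts with low MspI tended to have a high ratio (Spearman's rho -0.60 and Pearson's r -0.54 across 651 deserts, which share libraries and whose ratio has MspI as its denominator). Mean C+mC/MspI and mean HpaII/MspI went together (rho 0.53, r 0.53), and they share that denominator too.

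In the 3 deserts with the most members the ratio was above that of all members in each of the 4 samples. The gap between Celf4, an RNA-binding splicing factor, and Pik3c3, the vacuolar sorting lipid kinase, on chromosome 18 held 629 members over 4.51 Mb, with HpaII/MspI of 88.3%, 87.5%, 92.5% and 88.4%. On chromosome 14 the gap between Olfm4 and the protocadherin Pcdh17 held 588, with 92.0%, 89.8%, 95.9% and 93.4%, and that between the protocadherins Pcdh20 and Pcdh9 held 578, with 88.2%, 86.4%, 89.7% and 87.5%. In these 3 the 4 samples lay within 7 percentage points of each other, and Neil3-/- non-infarcted tissue was the highest. The Pcdh20 to Pcdh9 gap also held the 3 members farthest from any coding gene, the first at position 90751305, 2262 kb away. That site, with 1 neighbour within 10 kb, had HpaII signals of 8.86, 10.1, 11.2 and 11.3 over MspI signals of 25.8, 20.7, 28.2 and 27.8, low in all samples. The next, at position 90755030, had 24.1, 16.7, 15.4 and 27.6 over 5.40, 5.55, 5.59 and 7.03. HpaII was thus above MspI at this site and below it at the first, within the same desert.

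The extremes were small deserts. The highest ratio was found between Bcl2l11, a cell death activator of the Bcl-2 family, and Spdye4c on chromosome 2 (positions 128162548 to 128591200, 11 members), with 189.0%, 199.8%, 202.6% and 180.4%. Next came the gap between Serp2 and Lacc1 on chromosome 14 (21 members), with 171.7%, 172.8%, 165.4% and 184.4%, and that between the cadherins Cdh7 and Cdh19 on chromosome 1 (39 members), with 162.7%, 169.3%, 153.9% and 162.6%. At the other end, the gap between Rbms1, an RNA-binding protein, and Tank, an adaptor of TRAF signalling, on chromosome 2 (60963881 to 61578556, 40 members) had 48.5%, 48.7%, 49.5% and 51.4%. The gap between Sox9, a transcription factor of cartilage and heart valve development, and the zinc transporter gene Slc39a11 on chromosome 11 (17 members) had 58.7%, 49.8%, 51.9% and 57.1%. The gap on the other side of Sox9, towards Gm11677 (183 members), had 82.1%, 81.9%, 85.7% and 85.0%, so the low level belonged to 1 flank. Samples differed by less than these deserts did: the ranges of the high and the low ones did not overlap, as the choice of extremes implies.

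Deserts beside developmental regulators had a somewhat lower median than the rest, and the gap was smaller than the spread between deserts. The list of developmental transcription factors and signals held 135 genes of which 75 flanked a desert. Its 83 deserts with at least 10 members had a median of 83.5%, within a range of 54.4% to 136.9%, beside 87.1% for all 651. Deserts beside cell adhesion, synapse and channel genes (127 with at least 10 members) had a median of 88.4%, within 59.9% to 162.1%. Deserts with a gene of none of the 4 lists on either side (436) had a median of 87.2%. Only 4 deserts beside olfactory, vomeronasal or taste receptor genes had 10 members. Mean MspI in wild-type non-infarcted tissue moved with these medians, at 36.9 beside developmental regulators, 31.4 beside adhesion, synapse and channel genes and 34.7 beside genes of no list; its part was not tested.

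Of the list of cardiac regulators, 32 of 43 genes flanked a desert, and the 37 deserts with at least 10 members had a median of 83.7%, within 54.4% to 104.2%. The highest lay between Hey2, a Notch effector of ventricular development, and Hddc2 (18 members), with 109.4%, 101.1%, 101.7% and 104.6%. The gap between Ryr2, the calcium release channel of heart muscle, and the muscarinic receptor gene Chrm3 (113 members) had 99.6%, 93.8%, 98.5% and 96.0%, and that between Gja1, the main gap junction protein of ventricular myocytes, and Hsf2 (110 members) had 91.5%, 96.5%, 99.0% and 102.1%. Low in the list were the gap between Lyplal1 and Tgfb2, a growth factor of scar formation and valve development, with 57.9%, 69.1%, 57.1% and 63.2% (23 members), and that at Zfpm2, a cofactor of GATA factors, with 64.9%, 65.1%, 63.5% and 58.7% (20 members). Around Hand2, a transcription factor of heart formation (57 members), it was 79.4%, 87.1%, 79.0% and 80.1%, with the wild-type infarcted sample the highest of the 4. Both deserts of Mef2c, a transcription factor of muscle, were under the overall median, with means of 81.4% (162 members) and 73.9% (25 members).

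Relative to gene bodies, infarcted minus non-infarcted HpaII/MspI was below 0 in both genotypes in 343 of 651 deserts, above 0 in both in 93, and opposite in 215. In wild type alone 465 were below 0, and in Neil3-/- alone 436; the genotypes share no sample here, and their values went together weakly (rho 0.27, r 0.19 over 651 deserts that share libraries). Beside adhesion, synapse and channel genes 81 of 127 were below 0 in both and 10 above in both, and beside cardiac regulators 12 of 37 were below and 9 above. Beside developmental regulators 42 of 83 were below and 16 above, and beside genes of no list 220 of 436 were below and 65 above. The cardiac list shares genes with the developmental and the adhesion lists, so their deserts are not separate sets. The median relative difference in the cardiac list was -0.016 in wild type and 0.014 in Neil3-/-, against -0.051 and -0.026 over all 651. The adhesion list had the sparsest members, with a median of 3 neighbours within 10 kb, and the developmental list had 5.

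The most positive difference shared by both genotypes was in the gap between Gdap1, a mitochondrial fission factor of neurons, and Pi15 on chromosome 1 (11 members), where HpaII/MspI went from 105.5% to 126.7% in wild type and from 106.8% to 124.0% in Neil3-/-. Next to Sgk1, a kinase induced by glucocorticoids and stress, towards Aldh8a1 (17 members), it went from 49.7% to 61.0% and from 54.8% to 61.0%. The Tgfb2 gap described above was higher after infarction in both genotypes as well. The most negative shared difference was between Phlda1 and Krr1 on chromosome 10 (20 members), from 64.2% to 55.2% and from 64.6% to 53.6%, and Pcsk1 to Ell2 (28 members) went from 87.9% to 80.0% and from 95.1% to 79.0%. Each of these rests on 11 to 28 sites in single samples.

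**Figure D5:**
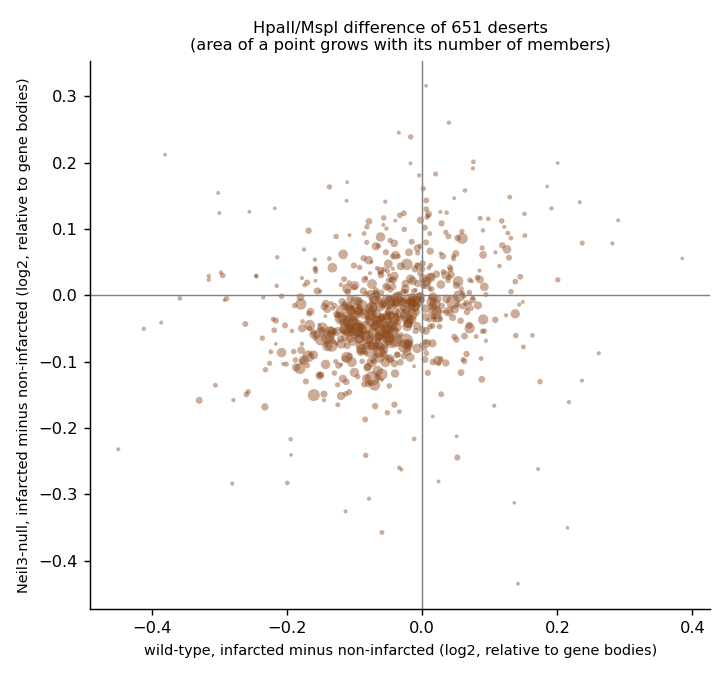
Each point is 1 of 651 deserts with at least 10 members: the log2 difference in HpaII/MspI, infarcted minus non-infarcted and relative to isolated gene-body sites, in wild type (horizontal) and in Neil3-/- (vertical), with the area of a point growing with its number of members. The cloud centres below 0 on both axes, with 343 deserts at the lower left and 93 in the upper right, and points with few members lie farthest out.

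In C+mC/MspI, 534 of 651 deserts were below 0 for infarction in Neil3-/- relative to gene bodies (median -0.098), and 312 of 651 in wild type (median 0.0035). Across deserts the Neil3-/- difference was larger where sites were sparse (rho 0.61, r 0.55 with the median number of neighbours, over 651 deserts). The Pcdh20 to Pcdh9 gap, with a median of 3 neighbours, went from 92.7% to 79.5%. The gap between Med13l and Tbx3, a transcriptional repressor found in the conduction system, had a median of 14 and went from 83.8% to 90.9%. These deserts, the second of them picked after its values were seen, lay far apart in site density and differed in opposite directions.

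For single sites the same minimum was set, a mean of 10 in the MspI and C+mC libraries, which kept 65106 of 73475 (88.6%) and 912550 autosomal sites in all. Their mean HpaII/MspI ran from 3.89% to 2788%, with 19.9% at the 5th percentile, 81.5% at the median and 332.9% at the 95th percentile. A site was counted when its ratio differed by 2-fold or more between 2 samples, relative to the median of all sites used. In HpaII/MspI, 18.4% of members were past 2-fold between infarcted and non-infarcted wild-type tissue (background 14.9), and 15.8% in Neil3-/- (background 12.0). Between genotypes it was 14.6% in non-infarcted tissue (background 11.6) and 18.3% in infarcted tissue (background 13.7). In C+mC/MspI the members' shares were 13.9% (background 14.2) for infarction in wild type, 7.13% (background 5.33) for infarction in Neil3-/-, 13.4% (background 12.8) for genotype in non-infarcted and 8.66% (background 6.61) for genotype in infarcted tissue. Each background is the share of all 912550 sites called by the same rule. Members were past 2-fold slightly more often than all sites in 7 of these 8 comparisons, and isolated gene-body sites stood between or near, at 17.1%, 13.8%, 13.2% and 15.7% in HpaII/MspI. Median MspI of the members used was 27.2, against 33.1 in gene bodies; the part of signal in these shares was not tested.

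The directions were uneven in a few comparisons. For infarction in wild type 10.4% of members were lower in HpaII/MspI (background 7.43) and 7.97% higher (background 7.51). For infarction in Neil3-/- 8.44% were lower (background 5.79) and 7.36% higher (background 6.19). Members past the fold were thus more often lower than higher after infarction in each genotype, while the sites as a whole were more often higher. Between genotypes in HpaII/MspI, 7.14% were higher (background 5.73) and 7.43% lower (background 5.83) in Neil3-/- non-infarcted tissue, and 9.67% higher (background 7.07) and 8.59% lower (background 6.64) in Neil3-/- infarcted tissue.

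The tilt was wider in C+mC/MspI within Neil3-/-. There 4.96% of members were lower after infarction (background 2.86) and 2.18% higher (background 2.47). In wild type 6.77% were lower (background 7.40) and 7.12% higher (background 6.79), an order that turned with the scaling: 4638 members were higher and 4410 lower as given, 4370 and 4628 without centring, and 4031 and 4985 when centred on gene-body sites. Between genotypes 8.27% were higher (background 6.77) and 5.18% lower (background 6.02) in Neil3-/- non-infarcted tissue, and 3.83% higher (background 3.48) and 4.83% lower (background 3.13) in Neil3-/- infarcted tissue.

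Few members were past 2-fold the same way in both genotypes or both tissues. In HpaII/MspI 858 were lower after infarction in both genotypes (1.32%, background 0.781) and 676 higher (1.04%, background 0.992). Past it in opposite directions were 1193 (1.83%, background 1.35). In Neil3-/- of both tissues 732 were higher (1.12%, background 0.814) and 641 lower (0.985%, background 0.714), and 1251 opposite (1.92%, background 1.37). Members were thus above the background in opposite pairs as well. Opposite pairs were thus more than those of either sign alone, and fewer than both signs together. In C+mC/MspI 325 were lower (0.499%, background 0.386) and 116 higher (0.178%, background 0.215) after infarction in both genotypes, and 313 higher (0.481%, background 0.364) and 255 lower (0.392%, background 0.328) in Neil3-/- of both tissues.

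The sites with the largest shared infarct difference had HpaII near the lowest values of its library. The most positive was at position 12414937 of chromosome 1, between A830018L16Rik and Sulf1, where HpaII was 3.05, 13.6, 4.75 and 21.6 over MspI of 15.2, 9.46, 15.2 and 10.2. The most negative was at position 78280592 of chromosome 5, between Igfbp7 and Adgrl3, where HpaII was 24.1, 7.09, 21.4 and 4.34 over MspI of 3.45, 6.61, 4.96 and 8.51. In both, the infarcted and non-infarcted samples did not overlap, as the choice of these sites implies. HpaII values came in bands with empty gaps between them, and the lowest band ended at 3.19, 3.62, 5.18 and 5.10 in the 4 samples and held 3.21%, 7.32%, 6.37% and 6.55% of members; all 10 named for the largest shared infarct difference had a sample in it. What 1 tag is worth is not known, so no counting error can be given.

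Of the 5 members with the most positive shared genotype difference, 4 lay on chromosome 8, and so did the member with the most negative one. At position 29520643, between Unc5d, a netrin receptor, and the phosphatase gene Dusp26, HpaII was 8.88 and 6.99 in the wild-type samples against 76.6 and 74.7 in the Neil3-/- samples, while MspI was 21.2, 17.9, 19.6 and 19.6. Here HpaII parted the genotypes and MspI did not. At position 51837218, between Tenm3 and Aga, HpaII was 55.2 and 55.8 in the wild-type samples against 41.2 and 41.6 in the Neil3-/- samples, while MspI went from 134.5 and 149.1 to 16.04 and 12.3, so that the ratio was higher in Neil3-/- although its numerator was lower. At position 37204914, between AI429214 and the sarcoglycan gene Sgcz, HpaII was 32.5 and 16.6 in the wild-type samples against 4.14 and 3.96 in the Neil3-/- samples over MspI of 92.2, 68.1, 70.9 and 83.2, and both Neil3-/- values lay in the lowest HpaII band, as did a sample of 6 of the 10 members named for the genotype difference. Over all members used on chromosome 8, 3.27% (127 of 3881) were past 2-fold the same way in both tissues, against 2.04% (1246 of 61225) on the other autosomes, higher and lower together. The corresponding background over the sites of all autosomes was 0.814 higher and 0.714 lower. The share of all sites on chromosome 8 alone was not computed, so whether the excess is particular to desert sites is not known. Neil3 itself lies on chromosome 8, from 53586867 to 53639065, and the named sites there lie between 29520643 and 51837218; the part of the targeted region in this result was not tested. For infarction the share on chromosome 8 was 2.14%, against 2.37% elsewhere.

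A model with both effects, fitted by limma over all 912550 sites with 1 residual degree of freedom, called no member in HpaII/MspI for infarction (background 0) or for genotype (background 0) at a Benjamini-Hochberg adjusted p of 0.05. Without adjustment 5490 members (8.43%) and 4896 (7.52%) had p under 0.05, against 6.61% and 5.70% of all sites, and the smallest adjusted p of a member was 0.742 and 0.860. With a pseudocount of 5 the counts were 0 and 3, against 2 and 28 of all sites. In C+mC/MspI no member was called for infarction (background 0.00373). For genotype 4 of 65106 members were called, all higher in Neil3-/-, against 57 of 912550 sites (background 0.00625). The share of members called was near that of all sites. Without adjustment 4361 members (6.70%) had p under 0.05 for infarction and 4869 (7.48%) for genotype, against 6.48% and 6.54% of all sites. Other settings called 1 to 13 members for infarction and 2 to 13 for genotype. The 13 came with a trended prior, under which 171 and 157 of all sites were called. As reported, the prior in C+mC/MspI carried 33.7 degrees of freedom beside the 1 residual degree of freedom. Standard errors and p-values of single sites there rest mostly on a variance pooled over sites, not on the spread at the site.

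The first of the 4, at position 73677333 of chromosome 1 between Tnp1 and Tns1, had C+mC signals of 0.939 and 4.72 in the wild-type samples against 10.4 and 10.6 in the Neil3-/- samples, over MspI of 17.9, 23.2, 16.7 and 14.2 (log2 difference 2.72 ± 0.42 SE, adjusted p = 0.010 by limma). The site in the Gm46038 window on chromosome 8, printed above, lies between Saraf, a brake on store-operated calcium entry, and Dusp4. It had C+mC of 6.88 and 9.18 in the wild-type samples against 15.0 and 24.6 in the Neil3-/- samples, over MspI of 25.6, 25.7, 8.46 and 16.01 (2.41 ± 0.40, adjusted p = 0.020 by limma). At position 11300966 of chromosome 13, in the gap between Chrm3 and Ryr2, C+mC was 0.920 and 3.18 in the wild-type samples against 12.3 and 7.19 in the Neil3-/- samples, over MspI of 33.8, 34.1, 34.3 and 31.4 (2.51 ± 0.44, adjusted p = 0.040 by limma). The genotypes did not overlap in C+mC at these 3 sites, as their choice by the test implies, and MspI was even across samples only at the last. Wild-type C+mC was low, below 5 in both samples, at the first and the last of them. With a pseudocount of 5, 2 members were called. The remaining one was at position 159882127 of chromosome 2, between Dhx35 and Gm826, with C+mC of 4.07, 3.18, 11.3 and 11.3 over MspI of 16.1, 15.9, 9.42 and 11.05, so that MspI was lower in both Neil3-/- samples (adjusted p = 0.030 by limma).

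Members with the highest ratios had almost no MspI signal. At position 35341066 of chromosome 3, between Sox2, a transcription factor of stem cells, and Atp11b, HpaII was 143.3, 125.1, 110.8 and 157.7 over MspI of 3.11, 5.33, 7.97 and 3.93. At position 17331638 of chromosome 10, between Nmbr and Cited2, a transcriptional coregulator needed for heart development, HpaII was 107.8, 107.1, 119.1 and 121.1 over MspI of 3.08, 6.41, 5.43 and 4.30. MspI cuts every CCGG that HpaII cuts, so such percentages are not shares of molecules. The lowest ratio was between Cdh2, the cadherin of the cardiac intercalated disc, and Dsc3, where HpaII was 3.14, 3.54, 7.56 and 3.96 over MspI of 110.4, 118.7, 104.8 and 105.9. C+mC there was 23.9, 30.6, 40.8 and 40.9, lower than MspI in all 4 samples. Next lowest was position 25481525 of chromosome 12, between Id2, an inhibitor of helix-loop-helix factors, and Rnf144a, with HpaII of 3.07, 6.56, 4.01 and 3.92 and C+mC of 86.9, 102.4, 108.2 and 80.9 over MspI of 104.1, 92.7, 119.5 and 107.3. These sites had a like HpaII signal, and C+mC was closer to MspI at the second than at the first.

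Some members lay inside genes that do not code for protein. The 7979 inside a lncRNA gene (10.9%) had HpaII/MspI of 82.9%, 85.0%, 86.5% and 86.1%, and the 65496 outside had 85.3%, 85.8%, 88.6% and 87.5%, slightly higher in each sample. The 790 members inside a pseudogene (1.08%) had 73.9%, 71.7%, 77.3% and 74.1%, the lowest of the kinds of site compared here. Their mean MspI was 35.1 in wild-type non-infarcted tissue, close to the 33.4 of members outside lncRNA genes, and C+mC/MspI was 84.7%, 86.7%, 90.5% and 85.8%, so the low level was seen in HpaII alone. Values in pseudogenes are uncertain where a tag matches several copies, with the treatment of such tags not given in the sources used here.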

How the data were processed

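HMST-seq libraries were made from 4 samples, 1 per group. The authors deposited a normalized signal per CCGG site for HpaII, C+mC (glucosylated DNA cut with MspI) and MspI; the method of normalization, the aligner, the filters and any pooling were not given in the sources used here. The build is mm10, per the submitters' processing notes, and positions were raised by 1 to count from 1, after checking against CCGG in RefSeq promoter windows. Genes and their 20665 autosomal coding models were taken from RefSeq GRCm38.p6. The depth behind the signal is unknown; library totals over autosomal sites were 33764133 to 43428586.

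Class ratios are ratios of summed signal. Desert and gene-body classes were compared within samples by an exact sign-flip permutation test over 4 samples. Differences between 2 samples have no test. Sites with a mean signal of at least 10 were counted by a 2-fold rule and fitted with limma 3.58.1 (infarct and genotype, Benjamini-Hochberg at 0.05), and the code was tested on simulated data. Named sites and deserts are the extremes by ratio, by shared difference, by number of members or by distance from a gene. Sites called by limma were named as well. Further deserts beside cardiac regulators were picked from that list and are not all extremes. The members and lists were chosen with earlier results of these data known.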

Additional observations from a re-analysis of the deposited data

Results flagged for a closer look

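In 3 pairs the difference of desert minus gene-body sites had opposite signs, each from 1 sample against 1 and not tested. In HpaII/MspI, Neil3-/- minus wild type was -0.018 in non-infarcted and 0.0028 in infarcted tissue on the log2 scale. For C+mC/MspI, infarcted minus non-infarcted was 0.0032 in wild type and -0.108 in Neil3-/-. In the same ratio, Neil3-/- minus wild type was 0.051 in non-infarcted and -0.060 in infarcted tissue.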

How the results depend on the processing

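Depth is unknown and each group is 1 sample, so class differences between 2 samples carry no error or test. Site errors and p-values come from the additive limma model, which estimates each effect with the other held and has 1 residual degree of freedom. Most of the variance behind them was pooled over sites. No paired analysis was possible because every sample has replicate number 1, so a block by that number has a single level. The cause of a shift below was not tested unless its setting changes the sites or the rule by construction.

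Desert against gene-body HpaII/MspI, 0.014 as log2, was 0.21 as the median of sites, 0.12 with no site within 1000 bp, 0.059 over 500 kb from a gene, 0.081 with distance to genes of any type and 0.079 within density classes. It was -0.025 and -0.100 at a mean signal of at least 10 and 20, -0.035 with whole gene spans, -0.22 within MspI classes and -0.22 with classes from the MspI of the other samples. Leaving out 1 sample gave 0.0042 to 0.022. The C+mC contrast, -0.0087, was 0.048 with no site within 1000 bp, 0.079 within density classes, 0.030 with MspI class and density class held, and -0.13 within MspI classes of either kind (-0.132 and -0.129). Leaving out 1 sample gave -0.026 to 0.010, above 0 only without Neil3-/- infarcted tissue.

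For HpaII/MspI the infarct difference in wild type, -0.053, was 0.011 as deposited and -0.021 within density classes, and that in Neil3-/-, -0.033, was -0.017 and -0.0031. The genotype difference in non-infarcted tissue, -0.018, was -0.040 for medians, 0.0092 relative to all sites, 0.056 as deposited and -0.0017 with equal library totals. In infarcted tissue, 0.0028, it was 0.027 as deposited and 0.017 with equal totals. Alternatives for C+mC/MspI were chosen after the data were seen. The infarct difference in wild type, 0.0032, was -0.051 for medians, 0.040 relative to all sites, 0.029 as deposited, 0.032 with equal totals and -0.027 within density classes. In Neil3-/-, -0.108, it was -0.087 in the first of these scalings (-0.0869), -0.087 as deposited (-0.0869), -0.088 and, within density classes, -0.029. The genotype difference in non-infarcted tissue, 0.051, was 0.012 for medians, 0.079 as deposited and -0.030 within density classes; in infarcted tissue, -0.060, it was -0.037 as deposited and -0.031 within density classes.

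Members past the fold, with infarct in wild type and in Neil3-/- and genotype in non-infarcted and in infarcted tissue in that order, numbered 11989, 10290, 9487 and 11890 in HpaII/MspI and 9048, 4643, 8755 and 5639 in C+mC/MspI. At 1.5-fold they were 26718, 24101, 23167 and 26074, and 24462, 17931, 24264 and 19361. At 3-fold they were 3711, 2885, 2617 and 3690, and 1577, 495, 1489 and 685. At a mean signal of at least 20 they were 6657, 5658, 5015 and 6659, and 4982, 2222, 4987 and 2699. A pseudocount of 5 gave 5575, 4527, 4070 and 5267, and 4256, 1586, 4090 and 1817. The members' share divided by that of all sites ran from 0.979 to 1.34 over the 8 comparisons as reported, 0.989 to 1.20 at 1.5-fold, 0.940 to 1.44 at 3-fold, 0.901 to 1.32 at a signal of 20 and 0.820 to 1.35 with the pseudocount of 5, and was above 1 in 6 to 8 of the 8 in every setting tried. By limma, members called for genotype in HpaII/MspI were 0, and 3 with a pseudocount of 5. In C+mC/MspI, 0 were called for infarction, and 1 at a signal of 20, 3 with a pseudocount of 5 and 13 with a trended prior; for genotype 4 were called, and 2 with that pseudocount and 13 with the trend.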

Other observations

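Desert sites with another listed site within 500 bp (23987) had a higher unmodified index than the isolated ones in every sample, with summed HpaII/MspI of 95.7%, 97.1%, 98.3% and 98.7% in non-infarcted then infarcted wild-type tissue and non-infarcted then infarcted Neil3-/- tissue. Their C+mC/MspI was 94.6%, 99.2%, 99.0% and 97.2%, and Neil3-/- infarcted tissue did not stand below wild-type non-infarcted tissue there.

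Of 82103 isolated desert sites listed in any sample, 87.1% were listed in all 4, against 87.8% of 254804 gene-body sites. Listed in both wild-type samples and in neither Neil3-/- sample were 872 desert sites, of which 412 were on chromosome 1 or 8. The reverse held for 331. Among gene-body sites these numbers were 2170, 674 and 997. Sites missing from a sample are not among the members, so desert DNA on those chromosomes is described only where every sample gave signal.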
